A study of Mus musculus with 3 samples.

Results

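The genes described here are 8 transcription factors that direct the fate of interneurons from the medial ganglionic eminence (MGE), namely *Nkx2-1*, *Lhx6*, *Lhx8*, *Sox6*, *Satb1*, *Maf*, *Zeb2* and *Bcl11b*. They were found by name: every mouse probe whose RefSeq transcript belonged to 1 of the 8 genes was taken, which gave 12 probes for 10 transcripts, of 26576 probes that could be named for 20141 genes. RNA was measured on 3 one-color Agilent arrays, with 1 array for each FACS-sorted cell population. Aggregates of J14 ES cells at D12 of differentiation toward MGE fate were sorted into ES-Lhx6-GFP+ cells (ES GFP+ below) and ES-Lhx6-GFP- cells (ES GFP- below). J14 is a single male line of the 129S4/SvJae strain. Per the labels it carried an Lhx6-GFP BAC, in which GFP follows the *Lhx6* regulatory sequences, and a viral mCherry reporter of an MGE enhancer. The aggregates (1920 from 20 plates) had received the Wnt inhibitor Dkk-1 at 100 ng/ml and the hedgehog pathway agonist SAG at 6 nM, and the Rock inhibitor Y-27632 was present during their dissociation. MGE-Lhx6-GFP+ cells (MGE GFP+ below) came straight from the MGE of E12.5 embryos of the CD1 background, labeled female, which carried an Lhx6-GFP BAC and were not cultured. They were dissociated with trypsin and DNase. All 3 populations therefore carried an Lhx6-GFP transgene, and both GFP+ populations were chosen by a reporter of *Lhx6*, so the level of *Lhx6* itself reflects the sort. Strain, sex, the mCherry reporter, culture and dissociation cannot be told apart from the difference between MGE and ES cells. The probes do not tell the endogenous *Lhx6* gene from any transcript of the transgene.

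Most inhibitory neurons of the neocortex arise far from it, in the embryonic subpallium. Within the MGE, NKX2-1 sets regional identity in progenitors and activates *Lhx6*, which marks cells as they leave the cell cycle and is needed for their migration and for the somatostatin and parvalbumin subtypes. SOX6 and SATB1 act later in this lineage, c-MAF controls the number and type of MGE interneurons, ZEB2 directs cells toward the cortex and away from the striatum, LHX8 is needed for cholinergic neurons of the basal forebrain, and BCL11B (CTIP2) is best known for its role in striatal projection neurons.

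The promoters of *Lhx6*, *Lhx8* and *Nkx2-1* are shown because these genes head the MGE programme and were measured together here. Each line gives the 250 bases before the most upstream annotated start, from RefSeq on GRCm38.p6, read 5′ to 3′ on the minus strand. Capitals mark matches, on either strand, to the motifs CAAGTG (bound by NKX2-1), TAATTA (LIM-homeodomain proteins), AACAAT (SOX proteins), CACCTG (an E-box bound by ZEB proteins) and TGCTGA (MAF proteins). CAAGTG and CACCTG are both of the E-box form CANNTG.
Lhx6, chr2:36105409-36105658: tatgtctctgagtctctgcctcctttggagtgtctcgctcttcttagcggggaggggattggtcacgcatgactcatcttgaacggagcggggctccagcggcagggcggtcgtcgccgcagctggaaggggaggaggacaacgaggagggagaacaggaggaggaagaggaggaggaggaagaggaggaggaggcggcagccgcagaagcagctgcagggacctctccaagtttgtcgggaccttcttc
Lhx8, chr3:154330561-154330810: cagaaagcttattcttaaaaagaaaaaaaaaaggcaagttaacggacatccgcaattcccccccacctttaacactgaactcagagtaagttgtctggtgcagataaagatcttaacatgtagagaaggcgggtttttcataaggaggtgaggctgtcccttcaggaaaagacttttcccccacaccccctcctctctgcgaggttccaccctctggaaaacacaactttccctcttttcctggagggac
Nkx2-1, chr12:56536909-56537158: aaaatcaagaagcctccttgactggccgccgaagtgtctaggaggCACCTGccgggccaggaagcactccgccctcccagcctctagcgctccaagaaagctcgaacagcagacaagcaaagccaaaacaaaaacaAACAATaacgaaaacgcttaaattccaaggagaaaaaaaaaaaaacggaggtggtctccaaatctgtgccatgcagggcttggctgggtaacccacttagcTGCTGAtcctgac

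The *Nkx2-1* window held 1 match each to the SOX, ZEB and MAF motifs, which began 114, 205 and 13 bases before the start. The *Lhx6* and *Lhx8* windows shown held no match to any of the 5 motifs. Of 8 members, 7 have a promoter in the RefSeq table used, with 21 windows in all. CAAGTG was found in 2 of the 21 windows (1 each of *Sox6* and *Satb1*), TAATTA in 0, AACAAT in 3, CACCTG in 3 and TGCTGA in 3. Among all 32851 windows of this length the shares with a match were 11.6%, 4.84%, 9.42%, 17.2% and 16.1% in the same order. A match is a run of letters and says nothing of binding. The *Lhx6* window was 61.6% G and C, the *Lhx8* window 46% and the *Nkx2-1* window 50.8%.

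Each value below is the intensity of a probe on 1 array after background subtraction, in arbitrary units. Fold changes and log2 differences were taken after each array had been scaled to its 75th percentile over all mouse probes (747 for ES GFP+, 843 for ES GFP- and 576 for MGE GFP+), so they differ somewhat from ratios of the intensities. There was 1 array per population, hence no replicate check and no test, and precision is limited by that number. The only error at hand is that of repeat spots of 1 probe on 1 array, which gave a difference between arrays an SD of 0.20 on the log2 scale, so that 2 SDs correspond to 1.32-fold. This spread holds nothing of the culture, the embryos, the sort or the amplification. All 12 member probes were called well above background on all 3 arrays. A probe is described as within the control range where it did not exceed the 95th percentile of 106 control probes for non-mouse sequences, an intensity of 378 for ES GFP+, 212 for ES GFP- and 153 for MGE GFP+ cells. Because these are sorted but mixed populations, fewer cells that express a gene and less RNA per cell cannot be told apart.

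The arrays were not alike in all probes. With this scaling the median log2 difference over all probes was 0.34 for ES GFP+ against ES GFP- cells, -0.083 for MGE GFP+ against ES GFP- cells and -0.47 for MGE GFP+ against ES GFP+ cells. Of the probes past 2-fold, 84.5%, 38.4% and 12.6% were higher in the first-named population. With quantile normalization these shares were 46.7%, 50.2% and 54.2%, and with the 50th percentile 59.6%, 61.3% and 55.8%. The share of all probes with a signed log2 difference at or above that of the member is therefore given with the differences of the members. Probes that were lower by as much are not in this share. In MGE GFP+ against ES GFP+ cells 34.7% of all probes were at least 2-fold lower. For a negative difference the share includes probes that were less negative, unchanged or higher. The 3 comparisons share arrays, so they are not independent of each other and are set side by side only.

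*Nkx2-1*, the homeobox gene that specifies the MGE, was higher in both GFP+ populations than in ES GFP- cells. Its probe (A_52_P216427, NM_009385, chromosome 12) was printed 10 times on each array. The mean intensity was 3673 in ES GFP+ cells (spots from 3283 to 4205), 1444 in ES GFP- cells (1365 to 1593) and 8371 in MGE GFP+ cells (7628 to 9202). The spots of no 2 arrays overlapped, and the SD of log2 intensity among them was 0.12, 0.077 and 0.086. *Nkx2-1* was 2.87-fold higher in ES GFP+ than in ES GFP- cells (log2 difference 1.52) and 8.49-fold higher in MGE GFP+ than in ES GFP- cells (3.09). It was 2.96-fold higher in MGE GFP+ than in ES GFP+ cells (1.56). Of all probes, 16.2%, 0.339% and 1.28% had a difference at least this large. The *Nkx2-1* signal in ES GFP- cells was well over the control range.

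**Figure D1:**
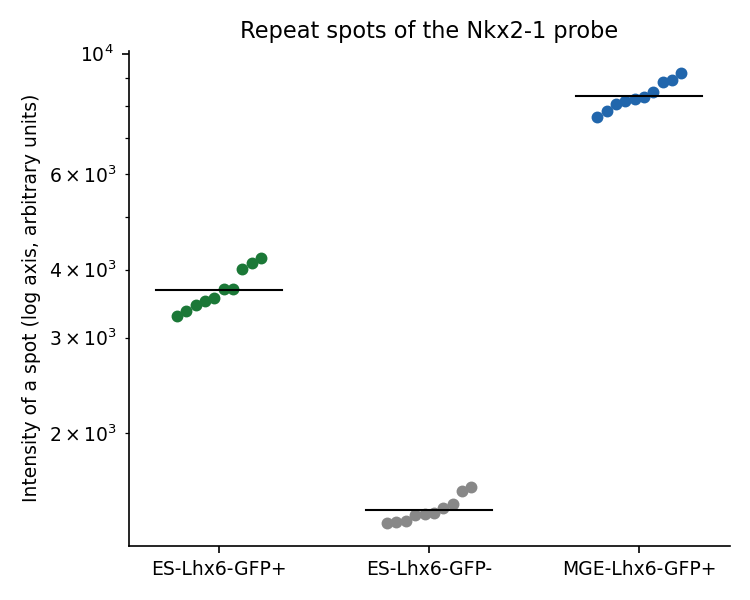
Intensity (log axis, arbitrary units, before scaling between arrays) of the 10 repeat spots of the *Nkx2-1* probe on each array; points are spots in order of size and lines are geometric means. The spots of the ES GFP- array lie between 1365 and 1593, those of ES GFP+ between 3283 and 4205, and those of MGE GFP+ between 7628 and 9202.

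*Lhx6*, the LIM-homeobox gene whose reporter was sorted, had 3 probes (chromosome 2), of which 2 separated the populations and 1 did not. Probe A_55_P2094149 (NM_001083125) gave 5818 in ES GFP+, 399 in ES GFP- and 10244 in MGE GFP+ cells. Probe A_55_P2094158 (NM_008500) gave 16913, 1373 and 25391 in the same order. On both, the ES GFP- array was far below the other arrays and the MGE GFP+ array was the highest. The folds against ES GFP- cells were 16.5 and 13.9 for ES GFP+ cells, and 37.6 and 27.1 for MGE GFP+ cells. MGE GFP+ cells exceeded ES GFP+ cells 2.28-fold on the first and 1.95-fold on the second probe. At most 0.369% of all probes had a difference as large as either probe in ES GFP+ against ES GFP- cells, and at most 0.0521% in MGE GFP+ against ES GFP- cells. For MGE GFP+ against ES GFP+ cells the shares were 3.11% and 5.54%.

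The remaining *Lhx6* probe (A_55_P2005903, also NM_008500) read 111947, 122188 and 97733 on the ES GFP+, ES GFP- and MGE GFP+ arrays. Its log2 differences of 0.05, 0.23 and 0.18 were all within 2 SDs of the repeat spots, were reached by 64.7%, 34.6% and 25.9% of all probes, and the sign of each turned under at least 1 other processing. It is assigned to the same transcript as a probe that differed 13.9-fold, so the probes of this transcript disagree. The mean of the 3 probes gave *Lhx6* a log2 difference of 2.63 for ES GFP+ and 3.41 for MGE GFP+ against ES GFP- cells, while the brightest probe alone gave 0.05 and 0.23.

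*Lhx8*, the LIM-homeobox gene of basal forebrain cholinergic neurons, showed the widest range among the members. Its probe (A_51_P298615, NM_010713, chromosome 3) gave 3471 in ES GFP+, 213 in ES GFP- and 11295 in MGE GFP+ cells. The value in ES GFP- cells lay next to the limit of the control range, 212, so a fold against it rests on a dim spot. *Lhx8* was 77.7-fold higher in MGE GFP+ than in ES GFP- cells (log2 difference 6.28), and 0.0239% of all probes were higher by as much. The ES GFP+ array exceeded the ES GFP- array 18.4-fold (4.20), which 0.135% of all probes did. Between both GFP+ populations, MGE cells were 4.22-fold higher (2.08), a difference that 0.417% of all probes reached.

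*Sox6*, an HMG-box gene that acts downstream of *Lhx6* in the positioning and maturation of interneurons, gave 4317 in ES GFP+, 1254 in ES GFP- and 10468 in MGE GFP+ cells (A_52_P475356, NM_011445, chromosome 7). The 3 values were well apart and all above the control range. *Sox6* was 3.89-fold higher in ES GFP+ and 12.2-fold higher in MGE GFP+ than in ES GFP- cells, and 3.14-fold higher in MGE GFP+ than in ES GFP+ cells. Of all probes, 10.06%, 0.189% and 1.02% had as large a difference in these comparisons, in the order given. Noncoding genes annotated as Sox6os and Gm51455 overlap *Sox6*, and it is not known here whether the probe separates them.

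*Satb1*, a chromatin organizer needed for the maturation of somatostatin interneurons, differed less. Its probe (A_51_P324228, NM_009122, chromosome 17) gave 6937, 3996 and 10311 on the ES GFP+, ES GFP- and MGE GFP+ arrays. The ES GFP- array was again the lowest, but its signal was many times the control range. ES GFP+ cells were 1.96-fold and MGE GFP+ cells 3.78-fold above ES GFP- cells. The ES GFP+ difference was past 2 SDs of the repeat spots, yet 28.1% of all probes were higher by at least as much in that comparison. For MGE GFP+ against ES GFP- cells the share was 1.76%. MGE GFP+ cells were 1.93-fold above ES GFP+ cells, with a share of 5.76%.

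*Maf*, which encodes the bZIP factor c-MAF, gave 1126, 356 and 1333 in ES GFP+, ES GFP- and MGE GFP+ cells (A_51_P405167, NM_001025577, chromosome 8). Both GFP+ populations were above ES GFP- cells and closer to each other than to ES GFP- cells. *Maf* was 3.57-fold higher in ES GFP+ and 5.49-fold higher in MGE GFP+ than in ES GFP- cells. MGE GFP+ cells exceeded ES GFP+ cells 1.54-fold, which was past 2 SDs but short of 2-fold. The shares of all probes with as large a difference were 11.5%, 0.732% and 11.7%.

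*Zeb2*, a zinc finger homeobox gene, had 2 probes for 1 transcript (NM_015753, chromosome 2) that disagreed, and its signals were dim. Probe A_52_P526372 gave 223 in ES GFP+, 136 in ES GFP- and 135 in MGE GFP+ cells, within the control range on all 3 arrays. Its largest log2 difference was 0.89, for ES GFP+ against ES GFP- cells, and 30.5% of all probes had one as large. MGE GFP+ cells differed by 0.54 from ES GFP- and by -0.35 from ES GFP+ cells. Of all probes, 21.7% and 46.1% were at or above these values. Probe A_52_P596008 gave 257, 318 and 565, of which the first lay within the control range. On this probe MGE GFP+ cells were 2.61-fold above ES GFP- and 2.86-fold above ES GFP+ cells, while both ES populations differed by -0.13, within 2 SDs. Of all probes, 4.70%, 1.42% and 73.3% were at or above these differences, in the order given. The genes Zeb2os and Mir5129 overlap *Zeb2*, and it is not known here whether the probes separate them.

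*Bcl11b* had 2 probes on different transcripts (chromosome 12), and both were lowest in ES GFP- and highest in MGE GFP+ cells. Probe A_52_P925277 (NM_001079883) gave 1449 in ES GFP+, 290 in ES GFP- and 6179 in MGE GFP+ cells. ES GFP+ and MGE GFP+ cells were 5.65-fold and 31.2-fold above ES GFP- cells on it, and MGE GFP+ cells were 5.53-fold above ES GFP+ cells. The last difference, 2.47 on the log2 scale, was larger than that of any other member probe in this comparison, and 0.213% of all probes reached it. The other differences on this probe were reached by 5.06% and 0.0478%. Probe A_51_P171772 (NM_021399) gave 427, 100 and 638, and its value in ES GFP- cells was within the control range. The folds on it were 4.82 and 9.34 against ES GFP- cells and 1.94 between both GFP+ populations, with shares of all probes of 6.90%, 0.278% and 5.64%. The probes differed in size but not in direction.

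**Figure D2:**
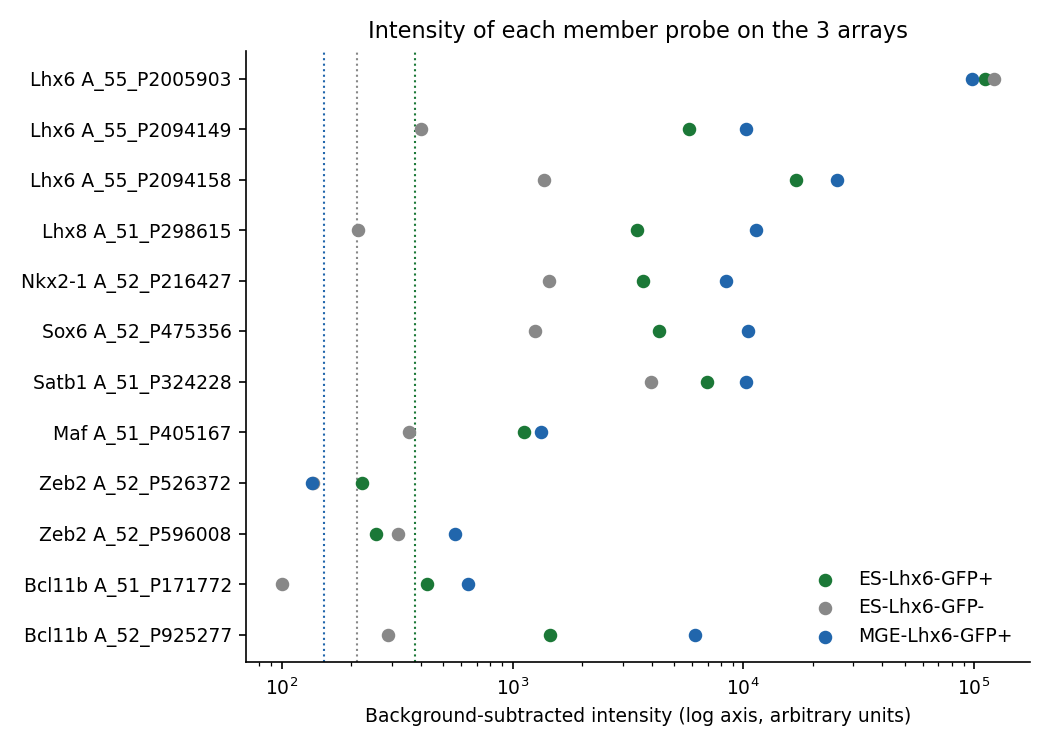
Background-subtracted intensity of each of the 12 member probes (log axis, arbitrary units, before scaling between arrays) on the 3 arrays, with 1 point per array and the 95th percentile of the control probes of each array as a dotted line of the same color. The ES GFP- point is the lowest on most probes, the first *Lhx6* probe reads 97733 to 122188 on every array, and for *Zeb2* A_52_P526372 the ES GFP- point (136) is hidden behind the MGE GFP+ point (135).

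On the scaled log2 values, 9 of the 12 probes, from 7 of the 8 genes, had the order ES GFP-, ES GFP+, MGE GFP+ from low to high with both steps past 2 SDs of the repeat spots. The share of all probes with this order was not counted, so the 9 of 12 have no background to be read against. The exceptions among the member probes were the brightest *Lhx6* probe, on which no neighbors differed beyond that spread, and both *Zeb2* probes. Counted at 2-fold, 8 of 12 member probes (6 genes) were higher and 0 were lower in ES GFP+ than in ES GFP- cells, against 27.3% of all probes higher and 5% lower. The median log2 difference was 1.90 over the members and 0.34 over all probes. In MGE GFP+ against ES GFP- cells 10 probes, with at least 1 from each of the 8 genes, were higher and 0 lower, against 9.5% and 15.2% of all probes, with medians of 3.15 and -0.083. For MGE GFP+ against ES GFP+ cells 6 probes (6 genes) were higher and 0 lower, against 5.01% and 34.7%, with medians of 1.08 and -0.47. When each comparison was centred on the median of all probes, these counts of higher probes were 8, 10 and 10, so the number that separates both GFP+ populations depends on the scaling. Of all probes, 9882 of 50994, 5076 of 46046 and 7022 of 50809 were then at least 2-fold higher. The members that fell short of 2-fold in MGE GFP+ against ES GFP+ cells and passed it after centring were the *Lhx6* probe A_55_P2094158, *Satb1*, *Maf* and the *Bcl11b* probe A_51_P171772.

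**Figure D3:**
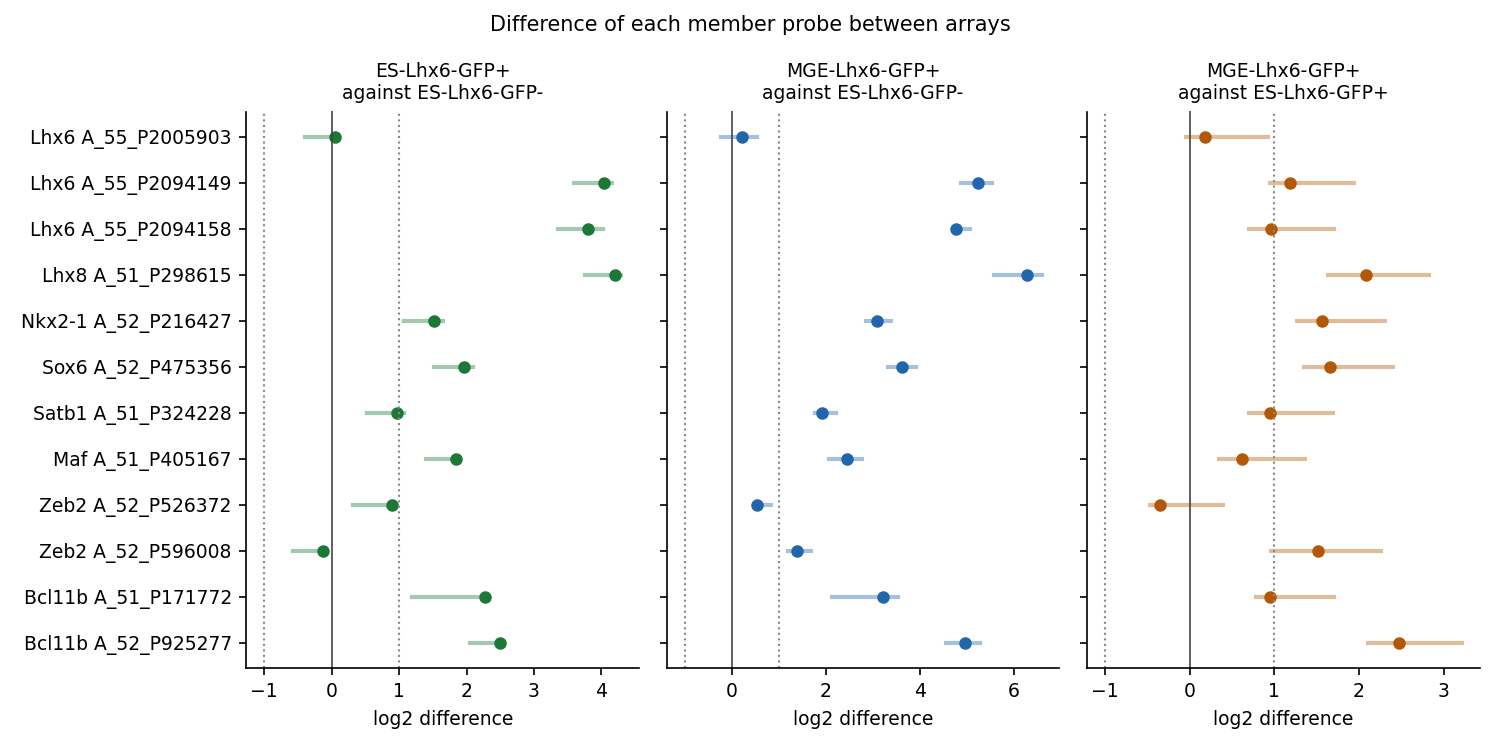
Log2 difference of each member probe in the 3 comparisons (points, scaled to the 75th percentile), with the range over the other settings as a bar, 0 as a solid line and 2-fold as dotted lines. *Lhx8*, at 4.20, 6.28 and 2.08, is the farthest to the right in both comparisons with ES GFP- cells, and *Bcl11b* A_52_P925277, at 2.47, in MGE GFP+ against ES GFP+ cells; the first *Lhx6* probe lies near 0 in every panel.

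Markers of other cell states and types differed between the same populations. The sums given here are of intensities before scaling between arrays, so small differences between sums are not read as differences between populations. Summed over 7 progenitor probes the intensity was 8978 in ES GFP+, 51228 in ES GFP- and 8483 in MGE GFP+ cells, and over 10 cell cycle probes 2985, 15846 and 5424. All 13 probes of neuron markers were above the control range on each array, with sums of 138911, 96157 and 135566. Summed oligodendrocyte markers were at 468, 2472 and 136, and glutamatergic markers at 1124, 3165 and 2408, where 1 *Tbr1* probe gave 1855 in MGE cells. The erythroid markers summed to 763, 616 and 17336 and had 3 of 5 probes above the control range on the MGE array, with 1 *Hbb-y* probe at least 445-fold above ES GFP- cells. The log2 difference of this *Hbb-y* probe came to 5.22 at the smallest under the other settings. Mesenchyme markers summed to 2701, 3856 and 155. Endothelial markers summed to 1126, 1255 and 1145, mostly from 1 *Kdr* probe (847, 1081 and 821), while the other *Kdr* probe gave 23.7, 57.3 and 266 and was at least 14.5-fold higher in MGE GFP+ than in ES GFP+ cells. That *Kdr* difference came to 2.17 on the log2 scale at the smallest under the other settings. Microglial markers summed to 5255, 5830 and 5322, mostly from 1 *Csf1r* probe, and 1 *Cx3cr1* probe was at least 12.0-fold higher in MGE GFP+ than in ES GFP- cells. This *Cx3cr1* probe was within the control range on all 3 arrays, and its log2 difference came to 1.91 under another setting. Among pluripotency markers a *Nanog* probe read 230708, 251126 and 225105, while *Pou5f1* gave 192, 612 and 59.2. The *Nanog* probe had log2 differences of only 0.053, 0.39 and 0.34 in the 3 comparisons. Whether its reading reflects *Nanog* RNA was not tested. The part of these cell states and types in the differences of the members was not tested either.

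To list genes with like profiles, the 3 probes with the nearest centred profile were taken for each member probe, among 20525 probes of named genes well above background on all arrays. The likeness is a Euclidean distance in log2 units over 3 arrays, and with so few points many genes come close to a modest pattern. The 2 *Lhx6* probes that separated the populations were nearest to *Gbx1* (distances 0.29 and 0.27), a homeobox gene of the ventral telencephalon, whose probe A_55_P2051787 gave 266, 24.2 and 521 in the order used above, within the control range on both ES arrays. The other *Gbx1* probe (A_55_P2079483) gave 656, 211 and 492, with log2 differences of 1.81, 1.77 and -0.04, and so had another profile. For *Lhx8* the nearest probe was the *Lhx6* probe A_55_P2094149 (0.80), followed by *Gbx1* (0.92) and *Tac1* (1.16), which encodes substance P. The profile of *Nkx2-1* lay within 0.094 of *Dlx2*, the homeobox gene of subpallial progenitors, and within 0.068 of *Bcl11a*, a paralog of *Bcl11b*, and nearest of all was *Gabrg1*, a GABA receptor subunit gene (0.045). For *Sox6* the nearest was *Sstr1*, a somatostatin receptor (0.032), followed by *Slitrk4* and *Prokr2* (0.077 and 0.14). The *Gabrg1*, *Sstr1*, *Slitrk4* and *Prokr2* probes were all within the control range on both ES arrays. *Bcl11b* A_52_P925277 had *Tac1* as its neighbor (0.13), and *Bcl11b* A_51_P171772 had *Arl4d* (0.10). *Satb1* was nearest to *Entpd7* (0.018), *Tmsb15l* (0.021) and *Hdac2* (0.022), and *Maf* to *Ago4*, *Ss18l1* and *Tmem225* (0.056, 0.057 and 0.058). Of these, *Tmsb15l* was within the control range on both ES arrays, *Tmem225* on all 3 and *Ago4* on the ES GFP- array. *Tac1* was within it on the ES GFP- array too. The brightest *Lhx6* probe and the *Zeb2* probes had neighbors at 0.0061 to 0.048, among them *Pard3*, *Upf2* and *Zfp827*.

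The counts of the following gene lists stand beside the shares of all probes given above, 27.3% higher and 5% lower in ES GFP+ against ES GFP- cells, 9.5% and 15.2% in MGE GFP+ against ES GFP- cells, and 5.01% and 34.7% in MGE GFP+ against ES GFP+ cells. For a gene with several probes the largest difference is printed first. Genes that act upstream of the members in the ventral telencephalon were split. Of 15 genes with 16 probes, 6 probes were at least 2-fold higher and 6 lower in ES GFP+ than in ES GFP- cells, of 15 with a fold, with a median log2 difference of 0.29. *Nkx6-2*, *Olig2* and *Gli1*, which mark ventral progenitors or hedgehog signaling, had log2 differences of -3.18, -2.93 and -2.04. In MGE GFP+ against ES GFP- cells 6 were higher and 5 lower of 15 (median 0.16), among them *Nkx6-2* (-6.47), *Gli1* (-4.77) and *Dlx2* (2.98). Against ES GFP+ cells 3 of 16 were higher and 3 lower, and *Dlx2* and *Dlx5*, which activate GABAergic differentiation, were higher by 1.58 and 1.47 while *Nkx6-2* and *Gli1* were at -3.29 and -2.74. Both *Nkx6-2* and *Gli1* were within the control range on the MGE and the ES GFP+ array, and these last differences came to -1.22 and -1.08 at the least under the other settings. Over the settings the list medians ran from -0.73 to 0.35, -0.56 to 0.47 and -0.21 to 0.65 in the 3 comparisons. Their signs therefore depended on the processing.

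Genes of the migrating and differentiating interneuron, some of them targets of the members, were mostly higher in the GFP+ cells. Of 15 probes for 14 genes, 13 were at least 2-fold higher and 2 lower in ES GFP+ than in ES GFP- cells (median 2.13), and 11 higher and 1 lower in MGE GFP+ than in ES GFP- cells (median 1.90). *Npas1* (2.99), *Npy* (2.54), *Mef2c* (2.43) and the semaphorin receptor gene *Nrp1* (2.42) had the largest differences in the former. In the latter *Mef2c* was at 2.79 and *Cxcr4*, a chemokine receptor gene, at -2.11. Between both GFP+ populations 2 probes were higher and 3 lower in MGE cells (median -0.23). Under the other settings 1 to 5 were higher and 2 to 4 lower, and the median ran from -0.41 to 0.52. In the main setting *Npas1* (-3.74) and the neuropeptide gene *Npy* (-1.84) were lower in MGE GFP+ than in ES GFP+ cells. *Elfn1*, not well above background in ES GFP+ cells, was at least 5.79-fold higher in MGE GFP+ cells. The *Elfn1* probe was within the control range on all 3 arrays, and its log2 difference came to 1.26 under another setting. The second *Npas1* probe differed by -1.53 between both GFP+ populations. In MGE GFP+ against ES GFP- cells the *Npas1* probes disagreed, at -0.75 and 1.44.

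LHX6 and LHX8 act with LIM-domain cofactors, whose genes were split between higher and lower. Of 8 probes for 7 genes, 2 were at least 2-fold higher and 2 lower in ES GFP+ than in ES GFP- cells (median 0.33). *Ldb1* and *Ldb2*, the adaptors that join LIM-homeodomain proteins into complexes, were higher by 1.26 and 1.07, and *Lmo1* and *Lmo2*, LIM-only proteins that compete for these adaptors, were at -1.96 and -1.02. Both *Lmo* probes were within the control range in ES GFP+ cells, and that of *Lmo2* came to -0.0033 under another setting. In MGE GFP+ against ES GFP- cells 2 were higher and 1 lower (median 0.21), with *Lmo4* at 1.51 (the other probe at 0.76), *Lmo3* at 1.15 and *Ldb1* at 0.37, while *Lmo1* was the lower probe and lay at the 2-fold limit. Against ES GFP+ cells 2 were higher and 1 lower (median 0.36), with *Lmo4* at 1.33 (the other probe at 0.27), *Ldb2* at -1.07, *Lmo2* at 1.01 and *Lmo1* at 0.96. In the first comparison 0 to 2 probes were higher and 1 to 2 lower under the other settings.

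Corepressor genes, whose products work with zinc finger factors such as ZEB2 and BCL11B, had 1 of 15 probes at least 2-fold higher and 1 lower in ES GFP+ than in ES GFP- cells (median -0.34), with *Mta2* at 1.07 and *Chd4* at -1.01. *Hdac2* and *Mbd3* were at 0.95 and -0.82 there, and the other *Mbd3* probe at -0.61. In that comparison 0 to 2 probes were higher and 0 to 5 lower under the other settings. *Mta2* came to 0.63 and *Chd4* to -0.86 at the smallest. In MGE GFP+ against ES GFP- cells 3 were higher and 0 lower (median 0.39), led by *Hdac2* (1.93), *Rbbp4* (1.32 and 1.17), *Mta2* (0.98) and *Rbbp7* (-0.79 and 0.058). The *Rbbp4* probe at 1.32 was within the control range on both ES arrays, and its difference came to 0.18 under another setting. Against ES GFP+ cells 2 were higher and 0 lower (median 0.66), led by 1 probe each of *Hdac1* (1.24), *Mbd3* (1.20), *Hdac2* (0.98) and *Ctbp2* (0.92). The other *Hdac1* probes gave 0.66 and -0.099, and the other *Mbd3* probe 0.76, so the *Hdac1* probes disagreed. The count of higher probes in this comparison reached 11 under another setting.

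Of 30 probes for 23 paralogs, 10 were at least 2-fold higher and 5 lower in ES GFP+ than in ES GFP- cells (median 0.05), but 2 to 11 were higher and 3 to 11 lower under the other settings. The largest differences were *Lhx9* (at least 11.0-fold higher), *Lhx4* (-2.95), *Nrl* (2.69, the other probe 2.14) and *Nkx2-3* (2.41), of which *Lhx9*, *Nrl* and *Nkx2-3* were within the control range on all 3 arrays. *Lhx4* was within the control range on the ES GFP+ and MGE arrays. Under another setting the log2 difference of this *Lhx9* probe came to 1.32. At the smallest under the other settings *Lhx4* came to -1.03, the *Nrl* probes to 1.31 and 0.74, and *Nkx2-3* to 1.30. In MGE GFP+ against ES GFP- cells, of 28 with a fold, 3 were higher and 12 lower (median -0.59), with 2 to 4 higher and 8 to 13 lower under the other settings. Lower probes also outnumbered higher ones among all probes in both comparisons of MGE GFP+ cells. *Nkx2-2*, *Lhx4*, *Lhx3* and *Lhx5*, which act in other regions of the ventral or caudal nervous system, each had a probe not well above background in MGE cells, with folds of at least 57.4, 49.4, 42.9 and 25.8 in favor of ES GFP- cells. These bounds hold for the main setting only. Under the other settings the log2 differences came to -2.18, -1.97, -1.76 and -1.03 at the smallest. The other *Nkx2-2* probe was well above background in MGE cells, at 76.1, and differed by -4.84. Against ES GFP+ cells 1 was higher and 16 lower (median -1.22), led by *Nkx2-2* (-4.15), *Nrl* (-3.70, the other probe -3.25), *Lhx5* (at least 11.2-fold lower) and *Lhx3* (at least 9.70-fold lower), but under the other settings 2 to 17 were lower and 1 to 5 higher, so that this split depends on the scaling. The *Lhx5* and *Lhx3* differences came to -1.41 and -1.34 at the smallest under those settings. *Bcl11a* gave 2596, 1014 and 5570 in the order used above, with differences of 1.53, 3.01 and 1.48.

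The probes with the largest differences among genes of other subpallial fates were partly dim, and probes of 1 gene did not always match. Genes of these fates, such as cholinergic neurons and interneurons of the caudal ganglionic eminence, had 3 of 16 probes at least 2-fold higher and 2 lower in ES GFP+ than in ES GFP- cells (median -0.26). Against ES GFP- cells MGE GFP+ cells had 7 higher and 3 lower (0.25), and against ES GFP+ cells 6 higher and 2 lower (0.34). In the first comparison *Gbx1* (3.64 and 1.81 on its probes), *Etv1* (-2.23 and -0.28), *Zic1* (1.70 and 0.92) and *Slc18a3* (-1.19) led. *Gbx1* (4.98 and 1.77), *Zic1* (4.24 and 2.80), *Etv1* (3.90 and 2.17) and *Gbx2* (2.72) led in the second. The *Etv1* probe with 3.90 was not that with -2.23 in the first. In the third *Etv1* (4.40 and 4.18), *Zic1* (2.54 and 1.87), *Gbx2* (2.06) and *Sp8* (-1.74 and -0.35) led. Under another setting the *Gbx1* difference of 4.98 came to 1.85 and the *Sp8* difference of -1.74 to -0.42. *Chat* and *Isl1*, which define cholinergic neurons together with *Lhx8*, gave 143, 200 and 158, and 143, 196 and 149, within the control range except for *Chat* on the MGE array.

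**Figure D4:**
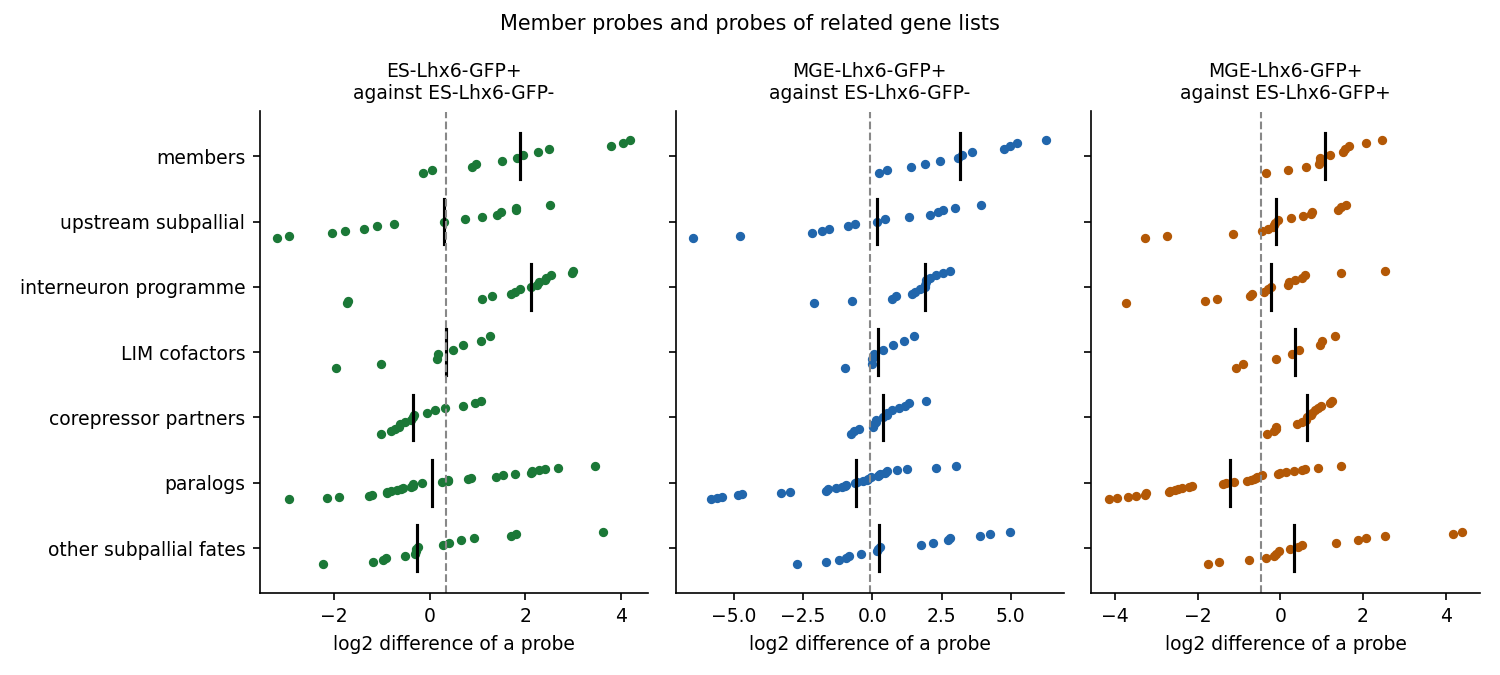
Log2 difference of each probe with a fold (points, scaled to the 75th percentile; differences against a probe not well above background are bounds) for the members and 6 related gene lists in the 3 comparisons; black bars are list medians and the dashed line is the median of all probes. The member medians of 1.90, 3.15 and 1.08 lie to the right of the dashed lines at 0.34, -0.083 and -0.47, while the paralog median in MGE GFP+ against ES GFP- cells is -0.59.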

How the data were processed

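RNA of 3 sorted populations was measured on 3 one-color arrays, 1 each, all on 1 slide. The labels describe another array format and amplification kit than the paper's methods, while each file lists 62976 spots, which fits the 8×60K design of the methods. The authors deposited Feature Extraction output (version 10.7.3.1 in the file headers) with the background-subtracted intensity of each spot, not scaled between arrays. The authors also deposited log2 values, whose processing is not stated with them: their column medians were 7.69, 7.68 and 7.69 (in the order ES GFP+, ES GFP- and MGE GFP+, used throughout), and they lay within 0.21 of log2 median spot signals that were quantile normalized without background subtraction, so they are neither centred nor ratios. They were used as an alternative.

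Control spots were left out, as were outlier spots (135, 137 and 98 of 59305 mouse spots), 0 spots were saturated, repeat spots were averaged on the log2 scale, and each array's 75th percentile over 55681 probes was subtracted. A probe counted as well above background if Feature Extraction called a fraction of 0.5 or more of its spots so (90.6%, 80.3% and 77.1% of probes). Where it was so on 1 of 2 arrays, the other was set to the higher of its own value and the lowest value among called probes, and the fold is a bound. Such a bound holds for this setting only, and other settings can give a smaller fold. Where it was so on neither, or the called side lay below that floor, no fold was given. The SD of log2 intensity among repeat spots (probes with at least 5 called spots) was 0.14 on each array. Probes were named through their RefSeq accession and the RefSeq gene table of GRCm38.p6. All probes of the 8 members are described, with the 3 nearest probes of other genes for each, and from each gene list (upstream subpallial, interneuron programme, LIM cofactors, corepressor partners, paralogs, other subpallial fates) the 4 genes with the largest difference in a comparison. Some genes that this rule names are not reported here. *Bcl11a*, *Chat*, *Isl1*, *Kdr*, *Cx3cr1* and second probes of listed genes were added after their values were seen. The members and lists were chosen with earlier results of these data known. Python 3.11.15 with pandas 2.3.3 and R 4.3.3 with limma 3.58.1 were used, and the difference script was tested on simulated data.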

Additional observations from a re-analysis of the deposited data

How the results depend on the processing

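No paired analysis was possible because each population has 1 array and no replicate number, and no replicate could be left out. A slide block was not possible on 1 slide, and normexp on the mean signal was not run because the files used here hold the median signal only; normexp on that median and centring on the median of all probes were added after seeing the data. Over 9 other settings of scaling, background and filters, the 12 member probes gave 320 differences, of which 204 moved by less than 1 SD of the repeat spots and 116 by more. No difference past 2-fold changed sign, and 307 of 320 kept their sign. The others were of the brightest *Lhx6* probe and the *Zeb2* probe A_52_P526372. Removing the filter on dim probes could not change any of these values, since all 12 probes were well above background on all arrays. The floor at the control probes could change only differences with a reading within the control range. Values that could not change are among the 204 and the 307, so these counts overstate how much was checked. With a floor at the control probes 4 differences of *Zeb2* had no value. The 8 member probes higher in ES GFP+ than in ES GFP- cells were 5 at 4-fold. For MGE GFP+ against ES GFP+ cells the 6 higher probes became 10 with the 50th percentile, 10 after centring on the median of all probes, 5 with a floor at the control probes (*Zeb2* A_52_P596008 at 0.96) and 2 at 4-fold. Of all probes, 2543 of 50809 were higher in the main setting, 11783 of 50914 with the 50th percentile and 7022 of 50809 after centring. With the control floor 1600 of 21832 were higher. All probes were not counted at 4-fold. With quantile normalization the count of member probes was again 6 (all probes: 7683 of 47015), but *Lhx6* A_55_P2094149 fell short of 2-fold at 0.95. With the brightest probe in place of the mean, the *Zeb2* difference of ES GFP+ against ES GFP- cells was -0.13 in place of 0.38. The control range limits what can be said of *Zeb2* and of *Lhx8* and *Bcl11b* A_51_P171772 in ES GFP- cells.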
